A study of Mus musculus with 9 samples.

Results

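Toll-like receptors are germline-encoded sensors of microbial products, and Myd88 is the adaptor through which most of them signal. The 10 genes described here are Tlr1, Tlr2, Tlr3, Tlr4, Tlr6, Tlr7, Tlr8, Tlr9, Tlr13 and Myd88, taken by the gene name on the array. They were covered by 12 probes on 31 spots, of 36492 gene names, 55681 probes and 59305 non-control spots in all. Tlr7 and Tlr8 each had a pair of probes, the Myd88 and Tlr2 probes were spotted 10 times each and the Tlr4 probe 2 times.

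Agilent arrays with a single dye measured the transcripts of mouse macrophages, with 3 arrays in each of 3 groups, all from strain C57BL/6J. The groups were F4/80high and F4/80low tumour-associated macrophages (TAMs) of a fibrosarcoma and, as controls, macrophages of the peritoneal exudate (PECs) from the peritoneum. F4/80 is a surface protein of macrophages encoded by Adgre1, and the labels name no other marker of the sort. The series calls the arrays of a group biological replicates without saying whether each came from its own animal, or from pooled animals. The p-values set a difference between groups against the spread of arrays within groups, and that spread may be technical in part. The comparisons set tumour macrophages against those of the peritoneal cavity, and the TAM subsets against each other. Tumour, tissue of origin and handling of the cells differ together between TAMs and PECs, and their effects cannot be told apart.

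Each Toll-like receptor binds its ligand with leucine-rich repeats and signals through a cytoplasmic TIR domain. Tlr1, Tlr2, Tlr4 and Tlr6 act at the cell surface on lipopeptides and lipopolysaccharide, while Tlr3, Tlr7, Tlr8, Tlr9 and Tlr13 act in endosomes on nucleic acids. Myd88 joins the receptors, except Tlr3, to IRAK kinases and NF-kB. Macrophages are among the cells that use these receptors to detect infection and products of damaged tissue.

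Promoters are shown for the 3 genes with the largest positive fold changes in F4/80high TAMs and for the gene with the largest negative one. Each is 300 bases around the RefSeq transcription start (GRCm38.p6), on the gene's own strand, with motif matches in capitals.
Tlr2, chr3:83841559-83841858, minus strand: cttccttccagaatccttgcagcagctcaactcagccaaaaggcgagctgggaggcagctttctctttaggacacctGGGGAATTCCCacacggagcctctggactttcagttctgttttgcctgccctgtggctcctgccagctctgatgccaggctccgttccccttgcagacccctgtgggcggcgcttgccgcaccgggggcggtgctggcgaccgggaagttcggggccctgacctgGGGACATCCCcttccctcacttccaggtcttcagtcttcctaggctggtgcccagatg
Myd88, chr9:119339969-119340268, minus strand: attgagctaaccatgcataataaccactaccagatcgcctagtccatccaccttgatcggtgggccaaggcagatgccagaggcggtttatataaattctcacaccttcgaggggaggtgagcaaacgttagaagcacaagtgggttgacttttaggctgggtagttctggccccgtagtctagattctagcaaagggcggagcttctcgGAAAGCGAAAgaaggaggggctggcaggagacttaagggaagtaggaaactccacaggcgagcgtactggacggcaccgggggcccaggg
Tlr3, chr8:45410331-45410630, minus strand: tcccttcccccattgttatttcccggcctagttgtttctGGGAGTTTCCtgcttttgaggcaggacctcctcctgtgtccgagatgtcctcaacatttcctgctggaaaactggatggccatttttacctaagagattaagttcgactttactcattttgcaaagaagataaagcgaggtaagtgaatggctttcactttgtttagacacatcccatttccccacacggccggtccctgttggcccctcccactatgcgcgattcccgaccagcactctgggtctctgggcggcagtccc
Tlr13, chrX:106143025-106143324, plus strand: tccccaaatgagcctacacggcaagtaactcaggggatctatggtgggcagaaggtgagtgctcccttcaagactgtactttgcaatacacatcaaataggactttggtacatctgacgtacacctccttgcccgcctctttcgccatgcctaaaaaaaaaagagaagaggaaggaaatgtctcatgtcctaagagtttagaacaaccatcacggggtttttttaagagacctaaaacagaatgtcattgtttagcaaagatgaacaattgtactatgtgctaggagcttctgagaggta
Promoters were found for 8 of the 10 genes (not Tlr4 and Tlr7), 10 promoters in all. They were searched on both strands for the core of the interferon-stimulated response element (ISRE), GAAANNGAAA, for the NF-kB consensus, and for the core of the PU.1 site, GAGGAAGT, where PU.1 is a transcription factor of macrophages. The Tlr2 window holds an NF-kB match that starts 173 bases upstream of the start site and overlaps a palindromic match starting 172 bases upstream, and another match that starts 8 bases upstream. The Tlr3 window holds an NF-kB match 211 bases upstream and the Myd88 window an ISRE core 40 bases upstream. Neither the Tlr13 nor the Tlr8 window holds any of the 3 motifs. Of the rest, 1 of the Tlr6 promoters has a pair of overlapping ISRE cores 116 and 110 bases upstream, 1 of the Tlr1 promoters has a PU.1 core 23 bases upstream, and Tlr9 has a PU.1 core on the opposite strand, 11 bases after the start. Among 32851 promoters of the same length, 4.51% hold the NF-kB consensus, 3.44% the ISRE core and 3.20% the PU.1 core. The matches describe letters in these windows and do not show that a factor was bound.

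The probes of related receptors are shown because probes of related genes could share signal. The Tlr1 and Tlr2 probes are the most alike among the probes of different genes in this group. They are written here 5′ to 3′, in the build of the files (mm9), with the bases that are identical in their best ungapped alignment in capitals.
Tlr2, chr3:83640344-83640403, minus strand: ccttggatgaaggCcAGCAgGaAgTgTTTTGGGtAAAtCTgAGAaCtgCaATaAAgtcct
Tlr1, chr5:65316115-65316174, minus strand: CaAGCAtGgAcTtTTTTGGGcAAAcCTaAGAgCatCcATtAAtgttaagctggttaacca
In that alignment 29 of 47 bases are identical (61.7%), and the longest run they share is 7 bases. No run of over 8 bases is shared by probes of 2 different genes of the group. Whether a probe lies in a coding exon or a UTR was not annotated here.

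Levels are log2 intensities relative to the 75th percentile of the array's non-control spots, and levels of different genes are not set against each other because probes differ in how well they hybridize. A difference of 1 is a factor of 2. A probe was used when some group had it well above background throughout, on all 3 of its arrays, which held for all 12 probes, and the brighter probe stood for its gene. The share of non-control spots above background ran between 36.1% and 38.3% per array. No saturation was marked, and 16464 genes were tested with limma. Slide 1 held all 6 TAM arrays and PEC replicate 1, and slide 2 held PEC replicates 2 and 3. In bulk RNA, fewer cells that carry a transcript and less of it per cell cannot be told apart.

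The macrophage label was borne out by its markers. All 8 macrophage markers were above background on every F4/80high array, 7 of 8 on every F4/80low array, where Mertk was on none, and 8 on every PEC array. Adgre1 stood at 5.94 ± 0.26 in F4/80high TAMs, 2.89 ± 0.50 in F4/80low TAMs and 5.88 ± 0.25 in PECs (SD, n = 3 arrays each). Transcripts of other cells were also present, most of all in F4/80low TAMs. Of 9 neutrophil markers, 4 were above background on every F4/80high array, 9 on every F4/80low array and 3 on every PEC array. Their summed level, in multiples of the array's 75th percentile, was 222 to 324 in F4/80high TAMs, 1833 to 7008 in F4/80low TAMs and 118 to 154 in PECs. The 3 measured monocyte markers summed to 1.29 to 2.33 in F4/80high TAMs, 31.4 to 112 in F4/80low TAMs and 0.230 to 0.634 in PECs. Of 6 T cell markers, 3 were above background on every F4/80high array, 6 on every F4/80low array and 2 on every PEC array, and their sum was 12.7 to 17.2 in F4/80high TAMs, 18.2 to 38.0 in F4/80low TAMs and 6.58 to 11.3 in PECs. Of 5 natural killer cell markers, 0, 3 and 1 were above background throughout in the same order of groups, and of 6 markers of conventional dendritic cells 2, 2 and 0. The counts were 4, 4 and 3 of 5 for plasmacytoid dendritic cells and 2, 3 and 2 of 5 for fibroblasts. Of the fibroblast markers, Pdgfra was above background on no array. Dcn was above background on 3, 3 and 3 arrays, Col3a1 on 3, 3 and 0, Thy1 on 0, 3 and 0, and Col1a1 on 0, 1 and 3. The fibroblast sum was 1.44 to 1.92 in F4/80high TAMs, 8.64 to 18.3 in F4/80low TAMs and 1.23 to 2.42 in PECs. Of the B cell markers, Cd79a and Pax5 were above background on no array, Cd79b on 0 F4/80high, 2 F4/80low and 2 PEC arrays, and Ms4a1 on 0, 1 and 1 in the same order of groups. Neutrophils and monocytes also express several Toll-like receptors and Myd88, and the part of these cells in the values of F4/80low TAMs was not tested.

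Across the family the direction of change differed from gene to gene. F4/80high TAMs held more Myd88, Tlr2 and Tlr3 transcript than PECs and less Tlr13 and Tlr4, and F4/80low TAMs held more Myd88 and Tlr2 and less Tlr13, Tlr8, Tlr4 and Tlr7. At an adjusted p under 0.05, 8 of the 10 genes passed in F4/80high TAMs against PECs (5 higher, 3 lower), where 53.1% of all genes tested passed, 25.0% higher and 28.0% lower. In F4/80low TAMs against PECs 7 passed (3 higher, 4 lower), against 51.9% of all genes, 22.7% higher and 29.2% lower. Between F4/80high and F4/80low TAMs 7 passed (6 higher, 1 lower), against 32.6% of all genes, 18.6% higher and 14.0% lower. Tlr3 entered the test only through F4/80high TAMs and Tlr8 only through PECs, so that each had to be higher there. Tlr8 is counted among the 7 between the TAM subsets although neither was above background. Of the other 8 genes, measured above background in all groups, 6, 6 and 5 passed in the same order of comparisons. The arrays of the compared groups did not overlap for 8 of 10 genes in each comparison, against 65.2%, 59.3% and 46.7% of all genes. Among the 8 genes above background in all groups, this held for 7, 6 and 6.

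The median absolute log2 fold change of the 10 genes was 1.65 in F4/80high TAMs against PECs, against 0.70 over all genes. It was 1.17 in F4/80low TAMs against PECs, against 0.67, and 1.27 between the TAM subsets, against 0.47. With Tlr3 and Tlr8 at their bounds, or left out where neither group was above background, these medians were 1.39, 1.07 and 1.16 in the same order of comparisons. The signed medians were 0.43, 0.17 and 1.23 in that order, against 0.00, −0.09 and 0.08 over all genes.

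**Figure D1:**
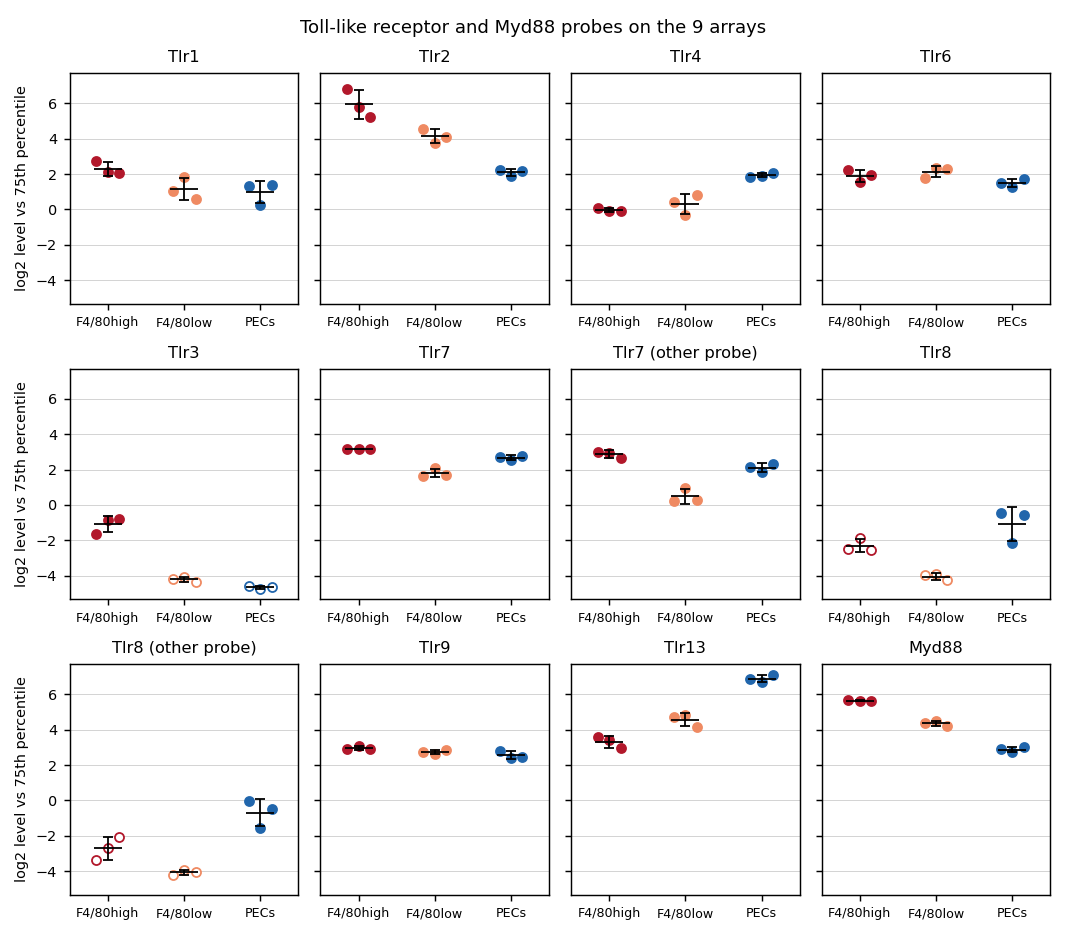
Log2 level relative to the array's 75th percentile (y axis) of each of the 12 probes, in F4/80high TAMs (red), F4/80low TAMs (orange) and PECs (blue), with 1 point per array, open where the spot was not well above background, and mean and SD as bars (n = 3). Myd88 and Tlr2 step down from left to right, Tlr13 steps up, and Tlr3 is above background only on the F4/80high arrays.

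Tlr2, the surface receptor for bacterial lipopeptides that pairs with Tlr1 or Tlr6, was the surface receptor with the largest difference. Its log2 level was 6.78, 5.82 and 5.21 in F4/80high TAMs, 4.54, 3.76 and 4.08 on the F4/80low arrays, and 2.25, 1.87 and 2.18 in PECs. The 3 groups did not overlap, and the spread was widest in F4/80high TAMs. Tlr2 was 14.3-fold higher in F4/80high TAMs than in PECs (log2 fold change 3.83, SE 0.37, adjusted p = 3.6e-05). In F4/80low TAMs it was 4.07-fold higher than in PECs (2.03, adjusted p = 0.00188). It was 3.50-fold higher in F4/80high than in F4/80low TAMs (1.81, adjusted p = 0.00539). With the lone PEC array of slide 1 as the comparison, the F4/80low value was 1.87 and short of the threshold (adjusted p = 0.0571). Within an array, the 8 to 10 spots of the probe that were used had an SD of 0.039 to 0.110 on the log2 scale, which measures the spotting and not the spread between samples.

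Tlr1 joins Tlr2 in the recognition of triacylated lipopeptides. It stood at 2.76, 2.13 and 2.03 in F4/80high TAMs, at 1.02, 1.81 and 0.60 in F4/80low TAMs and at 1.31, 0.24 and 1.39 in PECs. The F4/80high arrays lay above all others, while F4/80low TAMs and PECs overlapped. Tlr1 was 2.51-fold higher in F4/80high TAMs than in PECs (log2 fold change 1.33, SE 0.39, adjusted p = 0.0186). That call rested on single arrays: without F4/80high replicate 1 the value was 1.10 (adjusted p = 0.0688), without PEC replicate 2 it was 0.96 (adjusted p = 0.0634), and with slide as a block it was 0.99 (adjusted p = 0.211). Between F4/80high and F4/80low TAMs the log2 fold change was 1.16 (adjusted p = 0.0486). The call between the subsets was lost in 11 of 21 alternatives. With replicate number as a block the adjusted p was 0.0696, and without single arrays of the TAM subsets it ranged up to 0.153. F4/80low TAMs and PECs differed by 0.16 (95% interval −0.72 to 1.05, adjusted p = 0.747).

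Tlr6, the partner of Tlr2 for diacylated lipopeptides, varied little. Its level was 2.20, 1.56 and 1.93 in F4/80high TAMs, 1.78, 2.32 and 2.29 on the F4/80low arrays and 1.51, 1.27 and 1.72 in PECs. The F4/80low arrays lay just above the PEC arrays, and the F4/80high arrays overlapped both groups. The log2 fold change in F4/80low TAMs against PECs was 0.63 (SE 0.23, adjusted p = 0.0462), and it missed the threshold in 13 of 22 alternatives, with an adjusted p up to 0.703. F4/80high TAMs and PECs differed by 0.40 (95% interval −0.13 to 0.92), and F4/80high and F4/80low TAMs by −0.23 (−0.76 to 0.29). Neither passed (adjusted p = 0.179 and 0.486), but the values of the authors' deposited table gave 0.48 in F4/80high TAMs against PECs, which did (adjusted p = 0.0265). Tlr1 and Tlr6 lie close together on chromosome 5, with Fam114a1 and Mir574 between or overlapping them.

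Tlr4, which detects lipopolysaccharide together with Ly96 and Cd14, was lower in both TAM subsets. Its level was 0.09, −0.08 and −0.09 in F4/80high TAMs, 0.44, −0.30 and 0.81 on the F4/80low arrays and 1.86, 1.92 and 2.07 in PECs. Every TAM array lay below every PEC array, and the TAM subsets overlapped. Tlr4 was 3.93-fold lower in F4/80high TAMs than in PECs (log2 fold change −1.97, SE 0.26, adjusted p = 0.000229). In F4/80low TAMs it was 3.10-fold lower than in PECs (−1.63, adjusted p = 0.000866). The TAM subsets differed by −0.34 (95% interval −0.93 to 0.25, adjusted p = 0.36). Without F4/80low replicate 2, the lowest of its group, that difference was −0.65 (adjusted p = 0.0343). Tlr2 and Tlr4 ran in opposite directions against PECs in both subsets.

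Tlr3, the endosomal sensor of double-stranded RNA that signals through Ticam1 and not Myd88, was above background in F4/80high TAMs alone. Its level was −1.63, −0.88 and −0.79 there, −4.18, −4.09 and −4.36 in F4/80low TAMs and −4.59, −4.74 and −4.67 in PECs, where no array of either group was above background. The dim group was set at its own level or at the lowest level of any probe above background on the array, whichever was higher. Such folds are lower bounds only as to the dim signal, under this background correction. They are differences of means and carry no allowance for the spread between arrays. Tlr3 was at least 2.75-fold higher in F4/80high TAMs than in PECs and at least 2.05-fold higher than in F4/80low TAMs. The measured means gave log2 differences of 3.57 (adjusted p = 3.67e-06) and 3.11 (adjusted p = 2.89e-05). The normexp background correction, with its offset of 50, brought these to 0.77 and 0.48, both still past the threshold. Tlr3 entered the test only through F4/80high TAMs and had to be higher there, so that these p-values lend the direction no support. F4/80low TAMs and PECs cannot be compared for Tlr3 at this signal.

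Tlr7, a sensor of single-stranded RNA encoded on chromosome X, split the TAM subsets. Its brighter probe gave 3.15, 3.15 and 3.14 in F4/80high TAMs, 1.63, 2.09 and 1.72 on the F4/80low arrays and 2.70, 2.53 and 2.80 in PECs. The other probe gave 3.02, 2.96 and 2.63, then 0.24, 0.98 and 0.26, then 2.14, 1.86 and 2.33 in the same order of groups. On both probes the groups did not overlap and PECs lay between the TAM subsets. Tlr7 was 2.52-fold higher in F4/80high than in F4/80low TAMs (log2 fold change 1.33, SE 0.17, adjusted p = 0.000523). By the other probe it was 5.19-fold higher (2.38, adjusted p = 0.00017). F4/80low TAMs lay below PECs by both probes (−0.86, adjusted p = 0.00299, and −1.61, adjusted p = 0.000623). F4/80high TAMs lay above PECs by 0.47 (adjusted p = 0.044) and by 0.76 on the other probe (adjusted p = 0.0255). The value of 0.47 missed the threshold in 12 of 22 alternatives, including each of the 6 fits without 1 array of the compared groups.

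Tlr8 is the direct neighbour of Tlr7 on chromosome X, with no annotated gene between them. Human TLR8 senses RNA, and the ligand of the mouse receptor is less settled. The probe that stood for Tlr8 gave −2.48, −1.89 and −2.56 in F4/80high TAMs, −3.98, −3.92 and −4.26 on the F4/80low arrays and −0.46, −2.17 and −0.55 in PECs, and it was well above background only on the 3 PEC arrays. The other probe gave −3.35, −2.72 and −2.06, then −4.19, −3.93 and −4.07, then −0.01, −1.54 and −0.50, again above background only in PECs. PEC replicate 2 was low on both probes and on the first fell among the F4/80high arrays. Tlr8 was at least 2.10-fold lower in F4/80high TAMs than in PECs and at least 2.11-fold lower in F4/80low TAMs. The other probe gave at least 2.83-fold and at least 2.74-fold. The adjusted p of the measured differences was 0.0316 and 0.00043 for the first probe and 0.00285 and 0.000188 for the other, in that order. Tlr8 entered the test only through PECs, so that it had to be higher there. For the first probe the F4/80high call was lost in 7 of 21 alternatives, among them the fits without PEC replicate 1 or 3 and without F4/80high replicate 1 or 3, and the normexp correction ended it in both subsets. Its measured log2 difference was −1.25 in F4/80high and −2.99 in F4/80low TAMs against PECs, and −1.85 and −3.59 with slide as a block. No fold is given between the TAM subsets, where neither group was above background.

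Tlr9, the receptor for unmethylated CpG DNA, was nearly level across the groups. Its level was 2.89, 3.07 and 2.92 in F4/80high TAMs, 2.72, 2.64 and 2.86 on the F4/80low arrays and 2.83, 2.41 and 2.44 in PECs. The highest PEC array lay within the range of the F4/80low arrays and just below the F4/80high arrays. No comparison passed. F4/80high TAMs differed from PECs by 0.40 on the log2 scale (95% interval 0.01 to 0.78, adjusted p = 0.0754) and F4/80low TAMs by 0.18 (−0.21 to 0.56, adjusted p = 0.403), and the subsets differed by 0.22 (−0.16 to 0.61, adjusted p = 0.366). Without PEC replicate 1 the first was 0.53 and passed (adjusted p = 0.0244). In the authors' deposited table, with fewer genes tested, both differences from PECs passed, at 0.50 in F4/80high (adjusted p = 0.00744) and 0.44 in F4/80low TAMs (adjusted p = 0.0157).

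Tlr13, a mouse receptor for bacterial ribosomal RNA, was lower in both TAM subsets, most of all in F4/80high TAMs. Its level was 3.58, 3.44 and 2.94 in F4/80high TAMs, 4.72, 4.84 and 4.13 on the F4/80low arrays and 6.87, 6.70 and 7.11 in PECs. The groups did not overlap, and F4/80high TAMs were lowest. Tlr13 was 11.9-fold lower in F4/80high TAMs than in PECs (log2 fold change −3.57, SE 0.25, adjusted p = 5.53e-06), 5.02-fold lower in F4/80low TAMs (−2.33, adjusted p = 8.61e-05) and 2.37-fold lower in F4/80high than in F4/80low TAMs (−1.24, adjusted p = 0.00461). It was the only one of the 10 genes that was called lower in F4/80high than in F4/80low TAMs.

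Myd88, the adaptor, had the smallest standard error of the 10 genes. Its level was 5.68, 5.64 and 5.62 in F4/80high TAMs, 4.38, 4.48 and 4.22 on the F4/80low arrays and 2.90, 2.74 and 3.01 in PECs. The 3 groups lay well apart, in that order. Myd88 was 6.80-fold higher in F4/80high TAMs than in PECs (log2 fold change 2.77, SE 0.15, adjusted p = 1.63e-06), 2.78-fold higher in F4/80low TAMs (1.48, adjusted p = 7.64e-05) and 2.44-fold higher in F4/80high than in F4/80low TAMs (1.29, adjusted p = 0.000345). The 8 to 10 spots of the probe used on an array had an SD of 0.053 to 0.145. All 3 Myd88 calls held in each of 22 alternatives, as did those of Tlr13 and the calls of Tlr4 against PECs.

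**Figure D2:**
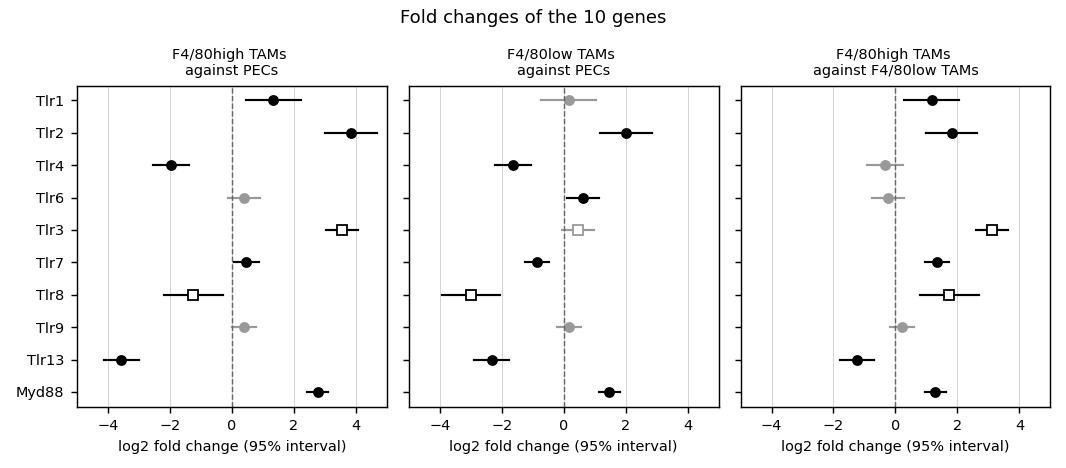
Log2 fold change (x axis) of each of the 10 genes with its 95% interval in the 3 comparisons, black where the adjusted p was under 0.05 and grey otherwise, with open squares where 1 or both groups were not above background. Tlr2 and Myd88 lie right of 0 in all 3 panels and Tlr13 left of 0, while Tlr7 lies on opposite sides in the first and the second.

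Genes that work with these receptors were taken from lists of the pathway, and the other Toll-like receptors were looked at first. Of Tlr5, Tlr11 and Tlr12, only Tlr12 was kept by the filter on dim probes. Tlr12, which in mice takes part in sensing a profilin of protozoan parasites, stood at 0.94 ± 1.05 in F4/80high TAMs, −1.78 ± 0.43 in F4/80low TAMs and −4.14 ± 0.64 in PECs (SD, n = 3). It was at least 11.3-fold higher in F4/80high TAMs than in PECs (adjusted p = 4.67e-05), where it was above background on no array. Tlr12 entered the test only through F4/80high TAMs, so that it had to be higher there.

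Surface co-receptors moved in different directions. Of 10 listed, 7 were tested, and 2 rose and 1 fell in F4/80high TAMs against PECs, 2 rose and 2 fell in F4/80low TAMs against PECs, and 2 rose and 1 fell between the TAM subsets. These 3, 4 and 3 calls of 7 stand against 53.1%, 51.9% and 32.6% of all genes, and nothing particular to the co-receptors is read from them. Cd14, which hands lipopolysaccharide to Tlr4 and also serves Tlr2, rose by 2.54 in F4/80high TAMs (SE 0.30, adjusted p = 0.000109) and by 1.13 in F4/80low TAMs (adjusted p = 0.0112) on the log2 scale. With median centring the F4/80low value was 0.66 and no longer passed. Ly96, the protein that binds lipopolysaccharide on Tlr4, stood at 3.55 ± 0.36 in F4/80high TAMs, 3.02 ± 0.72 in F4/80low TAMs and 3.70 ± 0.23 in PECs and passed in no comparison. Ly86, the partner of the Tlr4 homologue Cd180, was higher in F4/80high TAMs than in PECs (2.10) and lower in F4/80low TAMs (−1.59, adjusted p = 0.00158), with 3.69 between the subsets (adjusted p = 3.48e-05). Cd36, a scavenger receptor that assists Tlr2 with Tlr6, was at least 866-fold lower in F4/80high TAMs and at least 781-fold lower in F4/80low TAMs than in PECs. It was above background in neither TAM subset and entered the test only through PECs, so that it had to be higher there. Trem1, which amplifies Toll-like receptor signals in neutrophils and monocytes, was lower in F4/80high than in F4/80low TAMs (log2 fold change −2.82), and the neutrophil markers were highest in the same F4/80low arrays.

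Genes that fold the receptors, carry them to endosomes or process them there fell broadly in F4/80low TAMs. All 14 listed were tested. In F4/80high TAMs against PECs 2 rose and 6 fell (median log2 fold change −0.31), where 25.0% of all genes rose and 28.0% fell. The share called there was near the 53.1% of all genes. In F4/80low TAMs against PECs 0 rose and 11 fell (median −1.64), where 29.2% of all genes fell. In F4/80high against F4/80low TAMs 9 rose and 0 fell (median 1.02), where 18.6% of all genes rose. Unc93b1, which delivers the nucleic acid receptors to endosomes, stood at 6.69 ± 0.23 in F4/80high TAMs, 4.24 ± 0.10 in F4/80low TAMs and 6.08 ± 0.09 in PECs, with a log2 fold change of 2.45 between the TAM subsets (SE 0.17, adjusted p = 2.3e-05). Legumain (Lgmn), a lysosomal protease that cuts endosomal receptors, was lower in F4/80low TAMs than in PECs (−2.25) and higher in F4/80high than in F4/80low TAMs (2.37). Ctsl, another lysosomal protease, fell in both subsets against PECs (−2.56 in F4/80high and −3.16 in F4/80low TAMs). Cnpy3, a chaperone of surface and endosomal receptors, fell in F4/80high TAMs by 1.72 on the log2 scale (SE 0.19, adjusted p = 7.55e-05). Hsp90b1, the chaperone it works with, stood at 6.27 ± 0.31 in F4/80high TAMs, 5.86 ± 0.21 in F4/80low TAMs and 6.41 ± 0.35 in PECs and passed in no comparison. Rab7b, a GTPase of late endosomes, was lower in F4/80low TAMs than in PECs (−3.31) and stood at −1.53 in F4/80high TAMs (adjusted p = 0.00447), or −1.25 with slide as a block, short of the threshold.

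The other TIR adaptors had smaller fold changes than Myd88. Of 5 listed, 3 were tested and Ticam2 and Sarm1 were too dim. Tirap, which brings Myd88 to Tlr2 and Tlr4, was 1.30 higher on the log2 scale in F4/80high TAMs than in PECs (SE 0.25, adjusted p = 0.00192). Ticam1, the adaptor of Tlr3, fell in F4/80low TAMs against PECs (−0.92, SE 0.20, adjusted p = 0.00412; with slide as a block −0.85, adjusted p = 0.0536). Between the TAM subsets Tirap (0.80), Ticam1 (0.70) and Pik3ap1 (0.88), a phosphoinositide kinase adaptor, were each higher in F4/80high TAMs, where 18.6% of all genes rose. Each of these 3 lost the call when the TAM arrays were fitted alone, with adjusted p = 0.0714, 0.0511 and 0.0637, and 0 of the 3 was called with quantile normalization.

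Of the kinases and ubiquitin enzymes that follow the adaptors, 20 of 21 were tested, and 6 rose and 3 fell in F4/80high TAMs against PECs, 5 rose and 7 fell in F4/80low TAMs against PECs, and 9 rose and 1 fell between the subsets. Of all genes 53.1%, 51.9% and 32.6% were called, and the shares of kinases and ubiquitin enzymes called against PECs were near these. The counts moved with the scaling and the slide: 4 rose between the subsets with quantile normalization, 1 rose in F4/80low TAMs against PECs with median centring, and 1 fell there with slide as a block. Peli1, a ubiquitin ligase of IRAK complexes, rose most of those called, to 6.76 ± 0.24 in F4/80high TAMs, with 4.73 ± 0.38 in the F4/80low subset, against 2.85 ± 0.05 in PECs (log2 fold change 3.91 and 1.87, adjusted p = 1.68e-06 and 0.000146). Ikbke, a kinase that activates interferon regulatory factors, was 2.79 higher on the log2 scale in F4/80high TAMs than in PECs (adjusted p = 0.00112), and 2.03 within slide 1, short of the threshold (adjusted p = 0.0503). Map3k8, the kinase that leads from NF-kB signalling to ERK, was 2.19 higher (adjusted p = 0.000194). Btk (−1.26) and Peli2 (−1.26) were lower in F4/80low TAMs than in PECs, and both lost the call with slide as a block. Irak4, the first kinase that Myd88 recruits, stood at −0.94 ± 0.24 in F4/80high TAMs, −1.27 ± 0.27 in F4/80low TAMs and −0.44 ± 0.38 in PECs. It fell in F4/80low TAMs (log2 fold change −0.83, adjusted p = 0.0178), and the value of −0.50 in F4/80high TAMs did not pass (adjusted p = 0.107). Traf6, the ligase after the IRAK kinases, stood at 1.73 ± 0.04 in F4/80high TAMs, 1.91 ± 0.29 in F4/80low TAMs and 0.80 ± 0.17 in PECs, and rose in both subsets (0.93, adjusted p = 0.0026, and 1.11, adjusted p = 0.0012).

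Inhibitors of the pathway were tested in full. Of 16, 7 rose and 2 fell in F4/80high TAMs against PECs (median log2 fold change 0.52), 7 rose and 3 fell in F4/80low TAMs against PECs (median 0.39), and 8 rose and 2 fell between the subsets (median 0.81). Of all genes 53.1%, 51.9% and 32.6% were called, so that the shares of inhibitors called against PECs were close to the background. Tnfaip3 (A20), which removes ubiquitin chains from the signalling complexes, stood at 7.63 ± 0.44 in F4/80high TAMs, 5.59 ± 0.13 in F4/80low TAMs and 3.91 ± 0.67 in PECs, and passed in all 3 comparisons (3.71, 1.67 and 2.04). Tnip3, a partner of Tnfaip3, was 3.63 higher on the log2 scale in F4/80high TAMs than in PECs and 4.01 higher than in F4/80low TAMs. Nlrc5, listed for its inhibition of NF-kB and also the activator of MHC class I genes, rose by 4.77 in F4/80high and 2.79 in F4/80low TAMs against PECs on the log2 scale. Dusp1, a phosphatase that ends MAP kinase signals, was 2.08 higher in F4/80high than in F4/80low TAMs.

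Early target genes had the largest median fold change of any list of more than 1 tested gene. Of 16, 13 were tested, and 12 rose and 1 fell against PECs in each TAM subset, where 25.0% of all genes rose in F4/80high and 22.7% in F4/80low TAMs, with a median log2 fold change of 7.66 in F4/80high and 4.24 in F4/80low TAMs, or 6.43 and 4.15 with bounded genes at their bounds (Cxcl2, which lost 1 F4/80low array to an outlier mark, from the other arrays). Of the 13, 6 were above background on all arrays of both groups in each of these comparisons, and 5 of them rose and 1 fell. The median of these 6 was 5.47 in F4/80high and 3.85 in F4/80low TAMs. The other genes were above background on no PEC array or on some, entered the test through the TAM arrays and had to be higher there. Among those above background throughout, Ccl4, a chemokine, stood at 9.86 ± 0.19 in F4/80high TAMs, 6.44 ± 0.30 in F4/80low TAMs and 2.20 ± 0.28 in PECs (log2 fold change 7.66, 4.24 and 3.42 in the 3 comparisons). Tnf, an inflammatory cytokine, rose by 5.48 in F4/80high TAMs (adjusted p = 6.17e-06), and Nfkbia, the feedback inhibitor of NF-kB, by 4.11 in F4/80low TAMs (adjusted p = 6.96e-07). Ifnb1, the interferon made after Tlr3 or Tlr4 signals through Ticam1, was at least 312-fold higher in F4/80high TAMs than in PECs, and 4.16 higher on the log2 scale in F4/80high than in F4/80low TAMs. Il6, a cytokine, was 3.47 higher in F4/80high than in F4/80low TAMs (adjusted p = 0.000123). Between the TAM subsets 9 of the 13 rose, 0 fell and 4 were not called, where 18.6% of all genes rose. Il1b was at least 487-fold higher in F4/80high and at least 492-fold higher in F4/80low TAMs than in PECs. The subsets differed in Il1b by −0.01 on the log2 scale (adjusted p = 0.983). The target that fell against PECs was Saa3, an acute phase protein, named after its values were seen. Its log2 fold change was −3.12 in F4/80high and −1.70 in F4/80low TAMs. Neither call passed within slide 1, and 4 of the fits without 1 array lost that in F4/80low TAMs.

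**Figure D3:**
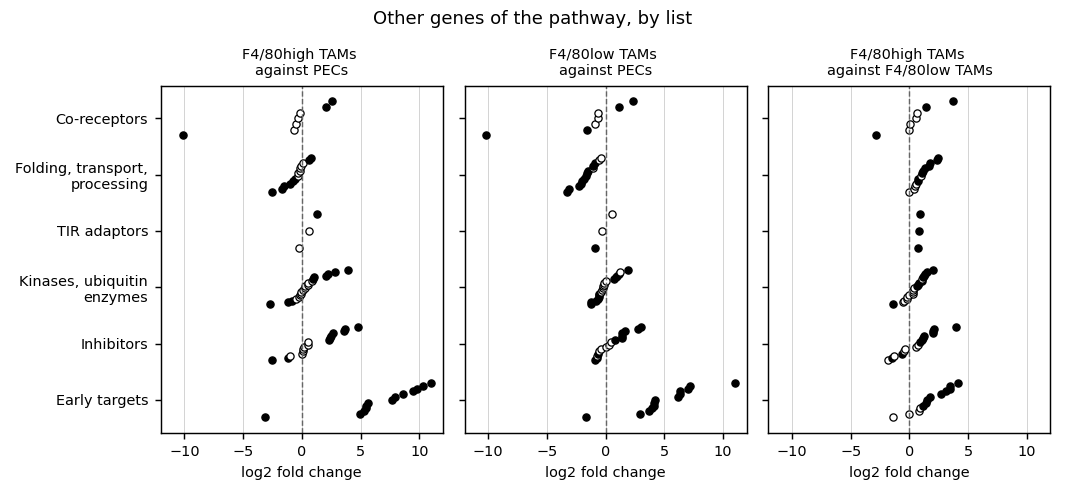
Log2 fold change (x axis) of each tested gene of 6 pathway lists in the 3 comparisons, with 1 point per gene, black where the adjusted p was under 0.05 and open otherwise. Early targets lie far right of 0 in the first and second panels except for Saa3, and genes of folding, transport and processing lie left of 0 in the second panel and, except for Cnpy3 (−0.054, not passed), right of 0 in the third.

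The range of each fold change over the alternative settings was compared with its reported value. In the comparisons and settings tried, Tlr1, Tlr3, Tlr6 and Tlr9 changed sign in at least 1, and Tlr2, Tlr4, Tlr7, Tlr8, Tlr13 and Myd88 in none. In the comparisons with F4/80high TAMs the widest ranges belonged to the dim genes Tlr3 and Tlr8. In F4/80low TAMs against PECs the widest was that of Tlr8 (−3.59 to −0.36), while Tlr3 ran only from −0.03 to 0.53.

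**Figure D4:**
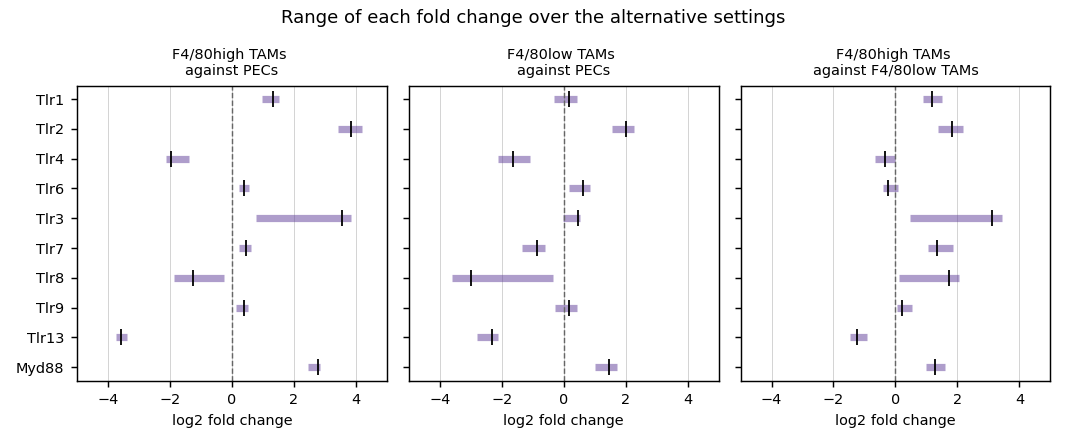
Reported log2 fold change (black tick, x axis) of each of the 10 genes and its lowest to highest value over the alternatives (purple bar), in the 3 comparisons. Bars of Tlr1, Tlr3 and Tlr9 cross 0 in F4/80low TAMs against PECs, and that of Tlr6 does between the TAM subsets.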

How the data were processed

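The deposited scanner files hold 1 linear intensity per spot (Cy3), which Agilent Feature Extraction 10.5.1.1 (protocol GE1_105_Dec08) had background-subtracted and spatially corrected, per the file headers. Each array has 62976 spots, 3671 of them controls. The values the authors deposited in a separate table are log2, cover 9703 probes and have column medians of 8.26 to 8.35; that it is log2 was read from the values, its normalization is not given in the sources used here, and Tlr1 and Tlr3 are not in it. It served as an alternative only. Probe positions are those of the files (mm9).

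Intensities were put on the log2 scale, the array's 75th percentile (an intensity of 53.5 to 97.3) was subtracted, spots marked as outliers (103 to 307 per array) were left out, and the mean over a probe's spots was taken. Symbols came from the RefSeq table for the 26413 of 55681 probes whose accession matched (3093 of them renamed). After the filter on dim probes 21199 probes and 16464 genes remained. All 9 arrays entered a single fit with limma 3.58.1 (lmFit, eBayes) in R 4.3.3, two-sided, with Benjamini-Hochberg adjustment within each comparison at 0.05. The median SE of a log2 fold change was 0.24, and precision is limited by how few arrays there are. The step was tested on simulated data.

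The text names all 10 genes with every probe. Of each pathway list and comparison it names up to 3 called genes with the largest change among those above background in both groups, and up to 2 bounds. Ly96, Hsp90b1, Irak4, Traf6 and Saa3 fall outside this rule and were named after their values were seen. The members, lists and motifs were chosen with earlier results of these data known. TAM arrays that share a replicate number deviated together (residual correlation across genes 0.23, 0.17 and 0.13), so the numbers may pair the TAM subsets. PEC arrays showed no such pairing by number. PEC replicate 2 reached 0.13 with F4/80high replicate 3 and 0.12 with F4/80low replicate 3, without sharing a number. The reported fit used no pairing, and the replicate block, an alternative, also ties the PEC arrays to the numbers. Alternatives were normexp correction, quantile normalization, median centring, other filters on dim probes, other ways of joining probes, fits of only the compared groups, slide and replicate blocks, an intensity trend, each array left out in turn and the deposited table.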

Additional observations from a re-analysis of the deposited data

Results flagged for a closer look

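The effect against PECs differed between F4/80high and F4/80low TAMs for 6 of the 10 genes, by the direct limma test of the TAM subsets. That test is the same as the difference of the 2 effects because both share the PEC arrays. Of all genes 32.6% passed it. For Myd88 the difference was 1.29 on the log2 scale and for Tlr2 1.81, with both subsets above PECs. For Tlr7 it was 1.33, with F4/80high TAMs above PECs (0.47) and F4/80low TAMs below them (−0.86). For Tlr13 it was −1.24, with both subsets below PECs. For Tlr3 it was 3.11 by the measured means, with F4/80low TAMs and PECs below background. Tlr3 entered the test only through F4/80high TAMs, so that it had to be higher there. Tlr8 also passed that test (1.74, adjusted p = 0.0118), but it was above background in neither subset and is not counted among the 6. For Tlr1 it was 1.16, and it did not pass in 11 of 21 alternatives, among them the replicate block (adjusted p = 0.0696).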

How the results depend on the processing

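Over 648 alternative values of the 10 genes, 579 kept direction and side of the threshold, 51 lost the call, 7 gained one and 11 changed sign. Each change of sign was in a comparison that had not passed. Median centring moved the median of all genes to −0.16 in F4/80high and −0.56 in F4/80low TAMs against PECs and 0.40 between the TAM subsets. With it, Tlr1 was −0.31, Tlr3 −0.019 and Tlr9 −0.29 in F4/80low TAMs against PECs, and Tlr6 was 0.081 between the subsets. Quantile normalization gave −0.027 for Tlr3. The slide block and slide 1 alone both gave −0.17 for Tlr1 and −0.089 for Tlr9 in F4/80low TAMs against PECs. Leaving out single arrays moved that Tlr1 value between −0.21 and 0.44. Of 1240 values of named pathway genes 52 lost the call.

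Genes called fell to 5632 under the slide block and 4896 within slide 1 in F4/80high TAMs against PECs (8738 as reported), and to 4907 and 4127 in F4/80low TAMs (8543 as reported); fewer arrays or degrees of freedom enter these fits. Without a filter on dim probes more probes were tested, and the F4/80low count against PECs rose to 14388. The other counts fell, to 8334 in F4/80high TAMs against PECs and to 4616 between the TAM subsets (5369 as reported). Why the F4/80low count alone rose was not tested. The deposited table called 4 of its 8 listed members between the TAM subsets, against 7 of 10. Without single arrays, members called ranged from 5 to 8 in F4/80high TAMs against PECs (5 without F4/80high replicate 1), 6 to 8 in F4/80low TAMs and 6 to 8 between subsets, and genes called from 7015 to 9007, 6603 to 8469 and 3917 to 5509. The cause was not tested. With the replicate block 7, 6 and 6 members passed, and 8587, 8349 and 5187 genes. The calls of Tlr7 in F4/80high TAMs against PECs, Tlr6 in F4/80low TAMs against PECs and Tlr1 between the subsets were lost, and no other member's call changed; PEC arrays share only a number with TAM arrays. Signal over background limits Tlr3 and Tlr8.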

Other observations

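The genes whose levels followed each member most closely over the 9 arrays were sought among 11067 named genes, by the root mean square (RMS) difference of log2 level after each gene's own mean was subtracted. The 9 arrays share their group structure, so closeness describes these arrays only. Myd88 was followed most closely by Nfkbib, an inhibitor of NF-kB (RMS difference 0.11), and by Tet2, a DNA demethylating enzyme (0.15). Nfkbib had log2 fold changes of 2.65, 1.47 and 1.18 in F4/80high TAMs against PECs, F4/80low TAMs against PECs and between the TAM subsets. For Tlr2 the closest were Bcl3, a nuclear regulator of NF-kB (0.30), and Filip1l (0.34). For Tlr1 they were Il10ra, a subunit of the receptor for Il10 (0.21), and Rnf224 (0.31). For Tlr3 they were Cemip2 (0.33) and Ddx60, an interferon-induced helicase (0.33), which had log2 fold changes of 3.51, 0.82 and 2.69. The closeness to Tlr3 rests on Tlr3 levels below background in F4/80low TAMs and PECs. For Tlr13 they were Myo1f, a myosin of leukocytes (0.23), and Slc36a4, an amino acid transporter (0.24).

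Among the remaining members, Tlr7 was followed by Ift22 (0.14) and Rcn2 (0.15), and Tlr4 by Ccnh (0.20) and Ikbip (0.21). Tlr9 was followed by Rhobtb1 and Kansl1 (0.11 each). Tlr6, which varied little, was close to the ribosomal gene Rpl13a (0.13). Tlr8 was closest to Pdgfc (0.37) and Itgb5 (0.41), and this rests on levels below background in both TAM subsets.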
